A study of Mus musculus with 6 samples.

Results

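The genes described here encode the ligands, latency proteins, receptors, SMAD transducers, co-repressors and antagonists of TGF-beta, activin and nodal signalling. They were taken from a list of 33 gene symbols, of which 32 had a row among the 24675 probe sets that carry 1 gene symbol. Gdf1, a partner of nodal, matched no row and is not analysed here. Transcript levels come from Affymetrix mouse Gene 2.0 ST arrays, hybridised with RNA of tissue that a laser cut from sections of C57Bl/6 embryos at embryonic day 10.5. The dorsal group (n = 3) was tissue lying between notochord and aortic roof, and the ventral group (n = 3) was tissue under the aorta. No allele or treatment separates the groups, both regions were taken from the same embryos, and the areas were chosen by position and not by a marker. The comparison concerns the ventral tissue as a niche of the first blood stem cells. Picogram amounts of RNA were amplified before labelling, per the labels' protocols, and the sources used here do not say how many embryos or sections a sample holds.

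TGF-beta is secreted in a latent form, bound through its propeptide to LTBP proteins of the matrix, and acts once it is released. TGF-beta, activin, nodal, GDF11 and myostatin bind a type II receptor, which activates a type I receptor that phosphorylates SMAD2 and SMAD3, and these enter the nucleus with SMAD4. The co-repressors SKI, SKIL, TGIF1 and TGIF2 bind these SMADs on DNA and hold transcription down, while LEFTY proteins block nodal and FSTL3 traps activins and myostatin. In the embryo, nodal and the LEFTY proteins are known for the left-right axis, GDF11 for axial patterning, and TGF-beta for mesenchyme and the vessel wall.

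Promoter windows are shown for the genes with an unadjusted p under 0.05 that had one and for Tgif2, the paralogue of Tgif1, so that the sequence can be set beside the values given further on. Each window runs from 250 bases before to 50 bases after an annotated start, 5′ to 3′ on the gene's strand, from RefSeq on GRCm38.p6. The windows lie at chr17:70853483-70853782 (Tgif1, minus strand, the most upstream of 5 annotated starts), chr2:156839757-156840056 (Tgif2, plus strand), chr10:128891669-128891968 (Gdf11, minus strand) and chr13:16011601-16011900 (Inhba, plus strand). Capitals mark the 5-base SMAD box CAGAC and the GC-rich SMAD site GGCGC, each on either strand (GTCTG and GCGCC).
Tgif1: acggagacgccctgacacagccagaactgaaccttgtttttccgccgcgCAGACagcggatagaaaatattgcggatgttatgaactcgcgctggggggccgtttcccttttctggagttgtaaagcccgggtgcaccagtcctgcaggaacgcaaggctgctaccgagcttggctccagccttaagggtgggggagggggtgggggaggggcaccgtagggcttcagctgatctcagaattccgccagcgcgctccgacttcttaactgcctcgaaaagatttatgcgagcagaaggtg
Tgif2: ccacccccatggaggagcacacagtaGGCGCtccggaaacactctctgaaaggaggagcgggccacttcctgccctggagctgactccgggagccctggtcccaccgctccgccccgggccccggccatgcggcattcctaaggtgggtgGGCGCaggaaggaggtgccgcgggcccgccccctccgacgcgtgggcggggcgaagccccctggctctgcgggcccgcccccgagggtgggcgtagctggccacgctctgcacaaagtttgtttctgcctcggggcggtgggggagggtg
Gdf11: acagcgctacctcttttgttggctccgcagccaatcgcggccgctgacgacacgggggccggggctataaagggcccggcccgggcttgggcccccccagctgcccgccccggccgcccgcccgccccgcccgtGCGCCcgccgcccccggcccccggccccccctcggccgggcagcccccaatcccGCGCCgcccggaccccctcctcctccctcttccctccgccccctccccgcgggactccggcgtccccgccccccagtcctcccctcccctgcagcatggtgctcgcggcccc
Inhba: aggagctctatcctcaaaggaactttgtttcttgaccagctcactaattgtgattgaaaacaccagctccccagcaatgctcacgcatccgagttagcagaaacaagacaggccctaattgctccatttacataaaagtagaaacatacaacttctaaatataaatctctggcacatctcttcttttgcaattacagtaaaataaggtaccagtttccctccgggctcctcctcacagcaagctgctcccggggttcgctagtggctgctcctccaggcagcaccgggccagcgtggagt

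The Tgif1 window held 1 SMAD box and no GC-rich site, those of Tgif2 and Gdf11 held 2 GC-rich sites each and no box, and that of Inhba held neither. The box occurs in 49.6% and the GC-rich site in 36.9% of the 32851 windows of 300 bases in the table. Among the 24 members with a window, 12 held a box and 13 a GC-rich site, with the most upstream start taken for each gene. The palindromic SMAD element GTCTAGAC, present in 0.213% of all windows, was in none of the 24. GC content was 47.7% for Inhba, 58.0% for Tgif1, 72.3% for Tgif2 and 80.7% for Gdf11, so the windows differ in base composition.

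None of the 32 members differed between ventral and dorsal tissue past the threshold, and the 5 members with the smallest p were lower on the ventral side. The log2 RMA signals were tested with limma, the replicate number as a block and Benjamini-Hochberg adjustment over all 24675 genes, and a log2 fold change is ventral minus dorsal. At an adjusted p of 0.05 limma called 0 of 32 members and 0 of all genes (0%), and the lowest adjusted p of a member was 0.435. At an unadjusted p under 0.05 there were 5 members, Skil, Lefty1, Gdf11, Tgif1 and Inhba, all lower in ventral tissue. This is 15.6% of the members, beside 5.90% of all genes in that direction. In the other direction 0 of 32 members and 4.32% of all genes had such a p. The lower-ventral count was 3 without both arrays numbered 1 (4.88% of all genes in that fit), 1 (Skil) without both arrays numbered 2 (4.26% of all genes), 8 without dorsal array 1 (8.47% of all genes) and 3 without ventral array 1 (4.08% of all genes). After cyclic loess 4 members had such a p, beside 4.37% of all genes lower and 4.81% higher in ventral tissue, so the lean of all genes to the dorsal side was lost there.

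The members' median and their share of negative differences lay close to those of all genes, while the share with all dorsal arrays higher was above the share of all genes. A log2 fold change under 0 was found in 19 of 32 members (59.4%) and in 58.0% of all genes, and the medians were -0.09 and -0.06. All 3 dorsal arrays were above all 3 ventral arrays for 9 members (28.1%), beside 12.0% of all genes, and the reverse held for 2 members (6.25%), beside 6.74%. After cyclic loess the counts of members were again 9 and 2, beside 8.41% and 9.05% of all genes. The level was lower in ventral tissue in all 3 pairs of equal number for 10 members (31.25%), beside 21.8% of all genes. It was higher in all 3 pairs for 4 of 32 members and for 3273 of the 24675 genes. Whether equal numbers mark one embryo is not stated. For 1 gene in 3 against 3 arrays, 0.1 is the smallest two-sided p that exact permutation allows.

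**Figure D1:**
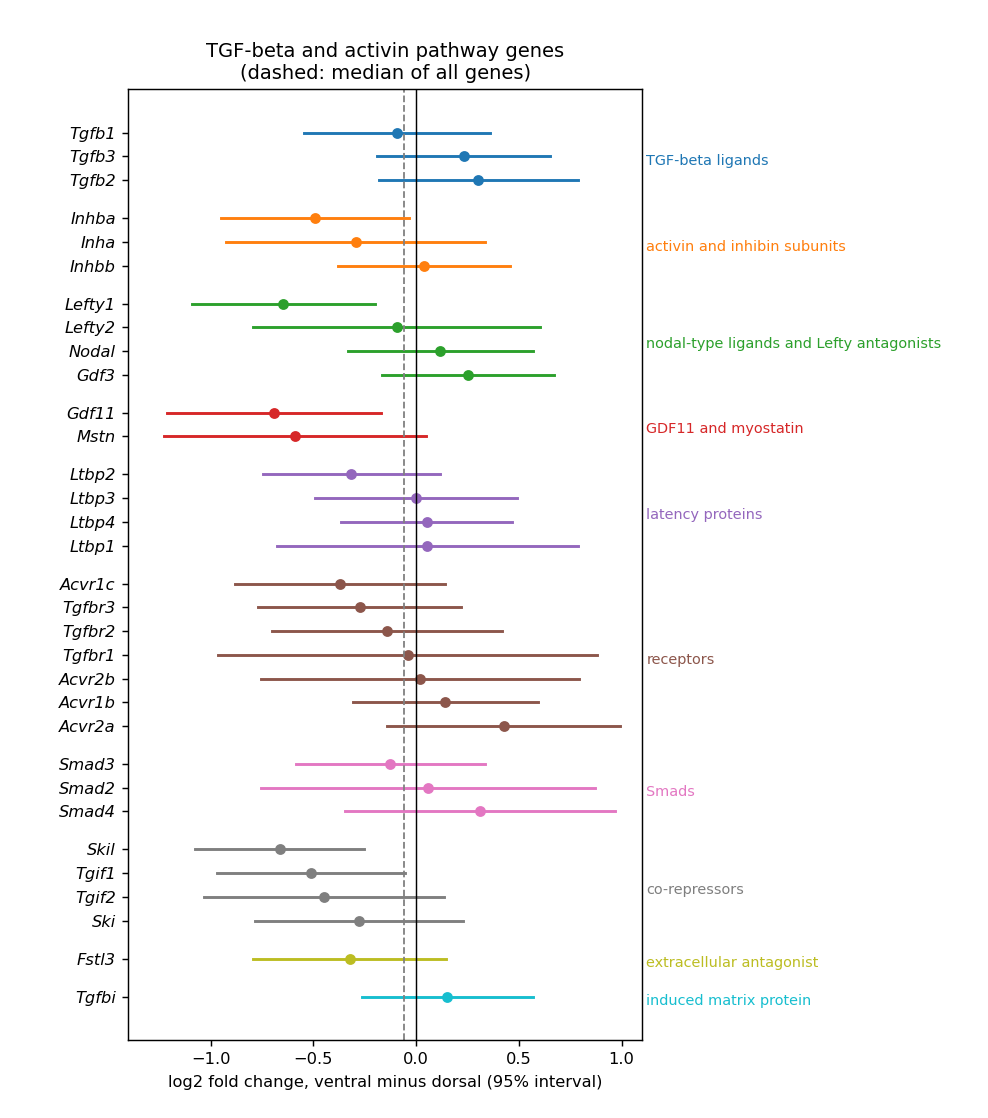
Log2 fold change, ventral minus dorsal (x axis), of each of the 32 measured genes, grouped by role, with its 95% interval from limma; the dashed line is the median of all genes (-0.06). The intervals of Inhba, Lefty1, Gdf11, Skil and Tgif1 lie below 0, and those of the other genes include 0.

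The signals were low. Array medians over all genes lay between 3.20 and 3.27, and 9 of the 32 members had a mean under 3.24, the median of all gene means. Detection calls were not used, so a ventral signal below the array median was not shown to be above background, and the log2 difference of such a gene may understate that of its transcript. Dorsal arrays varied more than ventral arrays, with a median SD over the members of 0.27 and 0.15 and a higher dorsal SD in 22 of 32 members, beside 66.0% of all genes. In these tissue samples fewer cells of a type and less RNA per cell cannot be told apart.

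The summed signal of sclerotome and of neural markers did not overlap between the groups over all their genes and arrays. Those of the other marker lists did, some of them only with every gene and array kept. Of the sclerotome markers, which mark the mesenchyme that forms vertebrae, all 9 of 9 were lower in ventral tissue by log2 fold change, and their summed linear signal was 227.6 to 244.4 in dorsal and 125.0 to 163.2 in ventral arrays. Their sums did not overlap either when any 1 gene or array was left out. Without Twist1, the brightest of the 9, they were 132.8 to 159.4 in dorsal and 106.7 to 111.1 in ventral arrays. None of the 9 had a mean under the median gene. Markers of splanchnic and subaortic mesenchyme were negative in 7 of 9, with sums of 132.4 to 165.5 and 116.7 to 142.9. Their sums separated without Gata6, at 125.7 to 134.0 in dorsal and 101.9 to 111.6 in ventral arrays. They also separated, dorsal higher, without dorsal array 1 or without ventral array 2. Endothelial markers were negative in 4 of 8, with sums of 69.9 to 84.0 and 69.8 to 80.9, and Pecam1, Kdr, Tek and Emcn lay under the median gene. Neural markers were positive in 5 of 7, with sums of 66.5 to 75.7 and 91.6 to 329.2. The neural sums were separated by Fabp7, a lipid carrier known from glial progenitors, at log2 signals of 3.60 to 3.82 in dorsal and 5.09 to 5.66 in ventral arrays. Without Fabp7 they overlapped, at 52.4 to 61.8 and 56.2 to 279.5. With Fabp7 kept, the upper end of 329.2 came from ventral array 1, and without that array it was 106.7. In ventral array 1 Sox2 was at 7.61, beside 2.20 and 2.72 in the other ventral arrays. Smooth muscle markers had sums of 62.1 to 126.1 and 50.1 to 68.6, with 4 of 5 negative. These sums separated, dorsal higher, without dorsal array 1 or without ventral array 1. Coelomic epithelium markers had sums of 73.7 to 90.2 and 70.6 to 81.5, macrophage markers 139.6 to 152.9 and 135.2 to 200.2, and notochord markers 115.6 to 149.7 and 115.3 to 141.1. The coelomic sums separated, dorsal higher, without dorsal array 1, and the macrophage sums, ventral higher, without ventral array 1. Megakaryocyte and platelet markers had sums of 68.7 to 104.9 and 72.1 to 85.0, and erythroid markers 1808 to 7135 and 516.4 to 10170. The part of these markers in the differences of the members was not tested.

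The 3 TGF-beta ligands did not lean to one side. Tgfb1, the isoform known from platelets, endothelium and blood cells, had log2 signals of 3.25, 3.13 and 3.69 in dorsal arrays 1, 2 and 3, against 3.34, 3.11 and 3.33 in ventral arrays 1, 2 and 3. The groups overlapped, and the log2 fold change was -0.09 ± 0.18 (SE), with a 95% interval from -0.55 to 0.36. Tgfb2, required for heart, skeleton and outflow vessels, was at 3.88, 3.66 and 3.81 in dorsal and 3.84, 4.24 and 4.18 in ventral arrays. Ventral arrays 2 and 3 were above every dorsal array and ventral array 1 was not, with a difference of 0.30 ± 0.20 (-0.18 to 0.79). Tgfb3, known for palate and lung, was at 3.06, 2.77 and 3.05 in dorsal and 3.15, 3.07 and 3.36 in ventral arrays. All ventral values exceeded the dorsal ones, though the lowest ventral and the highest dorsal value were 3.07 and 3.06, and the difference was 0.23 ± 0.17 (-0.19 to 0.65). The adjusted p of the 3 ligands lay between 0.610 and 0.866 in limma.

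Of the 4 LTBP genes, Ltbp1, Ltbp3 and Ltbp4 had log2 fold changes near 0, and Ltbp2 had a negative one. Ltbp2, the family member that does not bind latent TGF-beta, had log2 signals of 3.64, 3.77 and 3.53 in dorsal and 3.19, 3.40 and 3.41 in ventral arrays. Dorsal and ventral values did not overlap, and the difference was -0.32 ± 0.17, with an adjusted limma p of 0.562. Ltbp3 had means of 4.08 ± 0.28 dorsally and 4.08 ± 0.05 ventrally (SD, n = 3 each), with a 95% interval of the difference from -0.49 to 0.49. Ltbp4 was at 3.60 ± 0.08 and 3.65 ± 0.06, and Ltbp1 at 3.29 ± 0.32 and 3.35 ± 0.41. For Ltbp1 the 3 pairs disagreed, with differences of -0.71, 0.16 and 0.72, and the 95% interval of the mean difference was wide, -0.68 to 0.79.

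**Figure D2:**
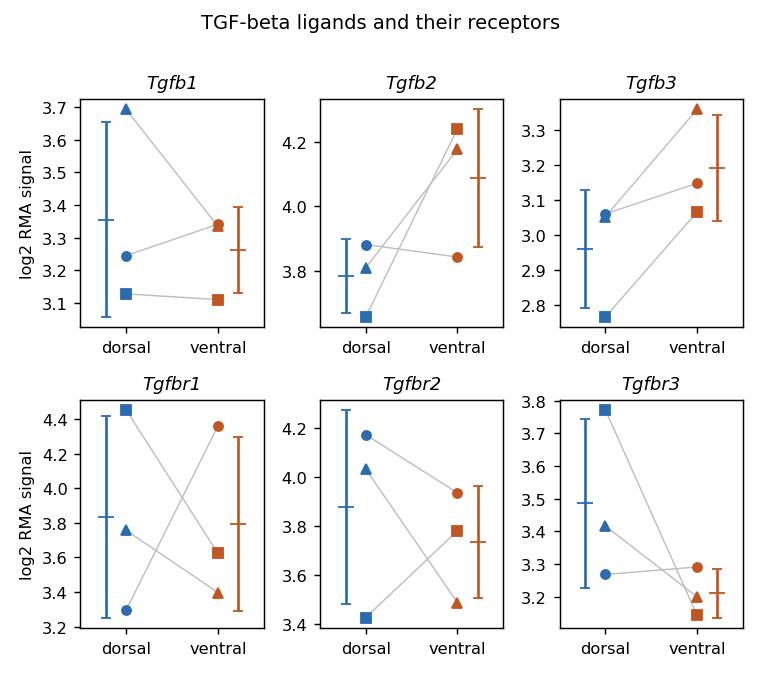
Log2 RMA signal (y axis, scaled per gene) of Tgfb1, Tgfb2, Tgfb3 and of the receptors Tgfbr1, Tgfbr2 and Tgfbr3 in dorsal (blue) and ventral (orange) arrays; circles, squares and triangles are replicates 1, 2 and 3, grey lines join equal numbers, and bars are mean and SD. Among these 6 genes only the Tgfb3 groups do not overlap, and the Tgfbr1 lines cross.

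Among activin and inhibin subunits, Inhba had the lower ventral level. INHBA is the chain that forms activin A, and INHA joins a beta chain to form inhibin, the antagonist of activin. Inhba had log2 signals of 2.50, 2.73 and 2.95 in dorsal and 2.24, 2.29 and 2.18 in ventral arrays. Every dorsal value lay above every ventral value, and all 6 lay under the array medians. The difference was -0.49 ± 0.19 (-0.95 to -0.03), with an unadjusted limma p of 0.0397 and an adjusted p of 0.479. In the 14 alternatives that tested Inhba, its unadjusted limma p was under 0.05 in 6. It was 0.0914 after cyclic loess and 0.0555 with each array centred on its median. Inhbb, the chain of activin B, had means of 3.59 ± 0.10 dorsally and 3.63 ± 0.14 ventrally, a difference of 0.04 (-0.38 to 0.46). Inha was at 3.91 ± 0.40 and 3.61 ± 0.24, with differences of -0.75, -0.48 and 0.34 in the 3 pairs.

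GDF11 and myostatin are close relatives that share the activin type II receptors, and both genes had lower ventral values. Gdf11 had log2 signals of 3.05, 3.57 and 3.21 in dorsal and 2.26, 2.55 and 2.94 in ventral arrays. The groups did not overlap, and the difference was -0.69 ± 0.21 (-1.21 to -0.17), a 1.62-fold higher dorsal signal. Its unadjusted p was 0.0179 and its adjusted p 0.444 in limma. Mstn, the restraint on muscle growth, was at 2.21, 2.27 and 3.27 in dorsal and 1.96, 2.01 and 2.01 in ventral arrays. Dorsal and ventral values did not overlap, but dorsal array 3 stood far above the other dorsal arrays, and the difference was -0.59 ± 0.26 (-1.23 to 0.05). Without dorsal array 3, in a fit without the block, the Mstn difference was -0.24. The adjusted p of Mstn was 0.506 with all arrays. Gdf11 lay under the array median in every array but dorsal array 2, and Mstn in every array but dorsal array 3.

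Nodal-type genes went in both directions. Lefty1, the nodal antagonist of the embryonic midline and floor plate, had log2 signals of 3.91, 4.0 and 4.27 in dorsal and 3.42, 3.11 and 3.72 in ventral arrays. The groups did not overlap, and the difference was -0.65 ± 0.18 (-1.09 to -0.20), with an unadjusted p of 0.0126 and an adjusted p of 0.437 in limma. Lefty2, the paralogue of the left lateral plate, was at 3.25, 3.28 and 2.59 in dorsal and 2.89, 2.68 and 3.26 in ventral arrays. These overlapped, and the difference was -0.10 ± 0.28 (-0.79 to 0.60). Paralogues can share probe sequence, and how the probe sets divide Lefty1 and Lefty2 was not tested.

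Gdf3, a nodal-like ligand of pluripotent cells, was at 4.19, 4.15 and 4.29 in dorsal and 4.35, 4.54 and 4.49 in ventral arrays. Every ventral value was the higher, and the difference was 0.25 ± 0.17 (-0.17 to 0.67), with an adjusted limma p of 0.621. Nodal itself had means of 4.15 ± 0.26 dorsally and 4.27 ± 0.42 ventrally, with a difference of 0.12 (-0.33 to 0.57). Gdf3 and Tgfb3 were the 2 members with all ventral arrays above all dorsal arrays.

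**Figure D3:**
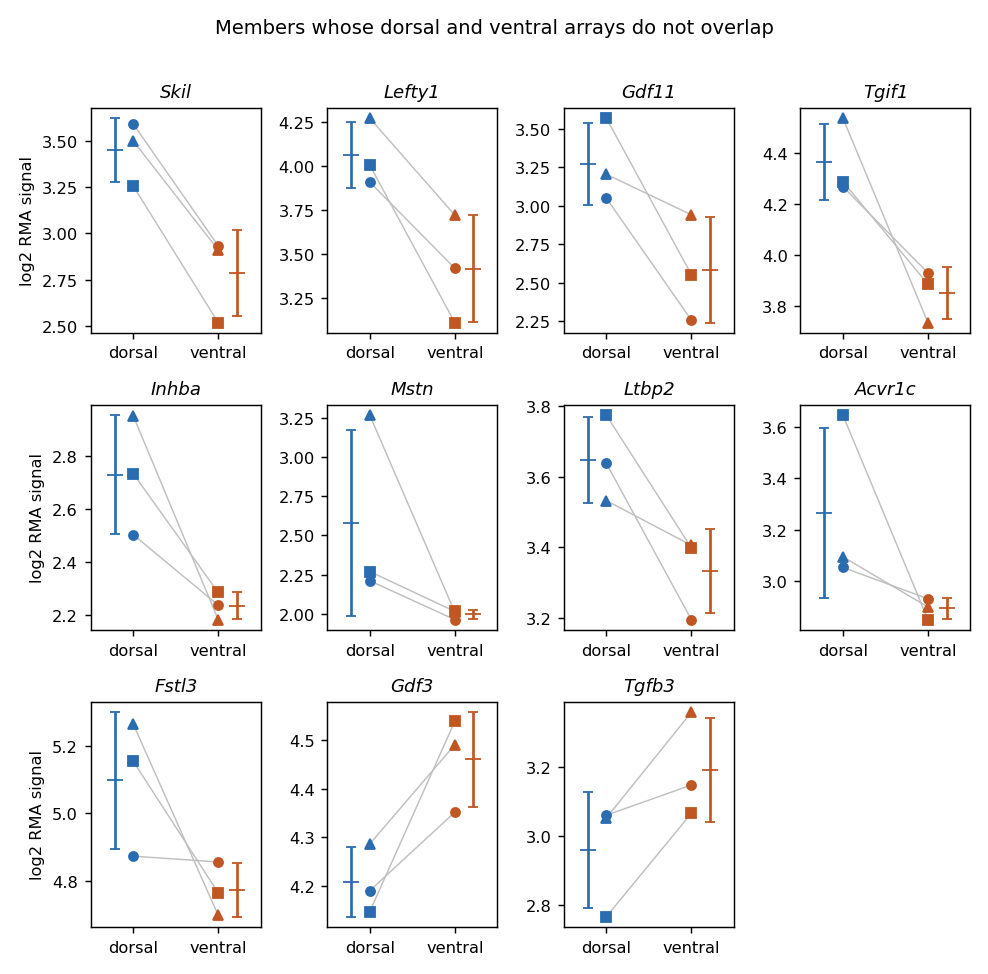
Log2 RMA signal (y axis, scaled per gene) of the 11 genes whose dorsal (blue) and ventral (orange) arrays do not overlap, ordered by limma p; circles, squares and triangles are replicates 1, 2 and 3, grey lines join equal numbers, and bars are mean and SD. In 9 panels the dorsal arrays are the higher, and in the panels of Gdf3 and Tgfb3 the ventral arrays are; the Mstn dorsal mean is drawn up by 1 array.

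Of the 7 receptors 4 had a negative and 3 a positive log2 fold change, and several varied widely between arrays of a group. Tgfbr1, the type I receptor of TGF-beta, had log2 signals of 3.30, 4.45 and 3.76 in dorsal and 4.36, 3.62 and 3.40 in ventral arrays. The pair differences were 1.06, -0.83 and -0.36, and the 95% interval of the mean difference, -0.97 to 0.88, was the widest among the members. Tgfbr2, the type II receptor, was at 4.17, 3.43 and 4.03 in dorsal and 3.93, 3.78 and 3.49 in ventral arrays, which overlapped, with a difference of -0.14 ± 0.23 (-0.70 to 0.42). Tgfbr3, the co-receptor betaglycan that presents TGF-beta2 and inhibin, was at 3.49 ± 0.26 and 3.21 ± 0.07, a difference of -0.27 (-0.77 to 0.22).

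Acvr2a, a type II receptor of activin, GDF11 and myostatin, had the most positive difference of the members with all arrays, a rank that rests on single arrays. Its log2 signals were 4.43, 3.61 and 3.24 in dorsal and 4.67, 3.69 and 4.20 in ventral arrays. The ventral array was the higher in each of the 3 pairs, by 0.24, 0.08 and 0.96, though the groups overlapped, and the difference was 0.43 ± 0.23 (-0.14 to 0.99) with an adjusted limma p of 0.558. In fits without the block the Acvr2a difference was 0.17 without dorsal array 3 and 0.19 without ventral array 1, below the 0.32 and 0.42 of Tgfb2, and it was 0.76 without dorsal array 1 and 0.67 without ventral array 2. Without both arrays numbered 3 it was 0.16. Its paralogue Acvr2b was at 3.51 ± 0.56 and 3.53 ± 0.25, with pair differences of 0.81, -0.75 and -0.01. Acvr1c, the type I receptor ALK7, was at 3.05, 3.65 and 3.10 in dorsal and 2.93, 2.85 and 2.90 in ventral arrays. The groups did not overlap, dorsal array 2 stood apart from the others, and the difference was -0.37 ± 0.21 (-0.88 to 0.14). Without dorsal array 2, in a fit without the block, the Acvr1c difference was -0.18. Acvr1b, the type I receptor ALK4 used by activin and nodal, was at 2.71 ± 0.13 and 2.85 ± 0.19.

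The SMAD transducers overlapped between the groups. Smad2 had means of 3.35 ± 0.50 dorsally and 3.41 ± 0.47 ventrally, and Smad3 at 3.34 ± 0.24 and 3.21 ± 0.02. Smad4, the partner shared with BMP signalling, was at 3.54, 4.49 and 3.44 in dorsal and 4.04, 4.11 and 4.26 in ventral arrays. Dorsal array 2 was above all ventral arrays while dorsal arrays 1 and 3 were below them, and the difference was 0.31 ± 0.27 (-0.35 to 0.97). Without dorsal array 2, in a fit without the block, the Smad4 difference was 0.64. Dorsal array 2 was picked for this after its values were seen. Without both arrays numbered 1, 2 or 3 the Smad4 difference was 0.22, 0.65 and 0.06. Its unadjusted limma p was under 0.05 in 2 of 16 alternatives, both without dorsal array 2, and its lowest adjusted p was 0.292.

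All 4 measured co-repressors had lower mean signals in ventral tissue, without passing the threshold, and their log2 fold changes ran from -0.66 to -0.28 with a median of -0.48. Skil, which encodes SnoN and is itself a target of TGF-beta, had log2 signals of 3.59, 3.26 and 3.50 in dorsal and 2.93, 2.52 and 2.91 in ventral arrays. Every dorsal array was above every ventral array, and the pair differences were nearly equal at -0.66, -0.74 and -0.59. The Skil values of the ventral arrays and of dorsal array 2 lay under the medians of their arrays. The difference was -0.66 ± 0.17 (-1.08 to -0.25), a 1.58-fold higher dorsal signal, with an unadjusted p of 0.0079 and an adjusted p of 0.435 in limma, each the lowest among the members with all arrays.

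Tgif1, a homeodomain repressor linked to forebrain defects when lost, was at 4.27, 4.29 and 4.53 in dorsal and 3.93, 3.89 and 3.74 in ventral arrays. The groups did not overlap, and the difference was -0.51 ± 0.19 (-0.97 to -0.05), with an unadjusted p of 0.0341 and an adjusted p of 0.466. Tgif2 was at 3.93, 4.61 and 4.56 in dorsal and 4.05, 3.84 and 3.86 in ventral arrays. Dorsal array 1 lay among the ventral values while the other dorsal arrays lay above them, and the difference was -0.45 ± 0.24 (-1.03 to 0.13). Ski, the founding member of the SKI and SnoN family, was at 4.62, 4.09 and 4.56 in dorsal and 4.56, 4.01 and 3.87 in ventral arrays. The groups overlapped, and in the pairs the Ski differences were -0.07, -0.08 and -0.69. Each of the 4 genes had a negative log2 fold change in every alternative that tested it, cyclic loess and median centring included. The sclerotome markers, lower in ventral tissue in 9 of 9, lay in the same direction as these 4 genes. So did 7 of 9 splanchnic and subaortic, 5 of 6 notochord, 5 of 6 coelomic epithelium and 4 of 5 smooth muscle markers. The share of all genes was 58.0%. Lower ventral levels were also found for 4 of 8 endothelial, 4 of 7 erythroid, 4 of 7 macrophage, 3 of 5 megakaryocyte and platelet and 2 of 7 neural markers. The part of these markers was not tested.

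**Figure D4:**
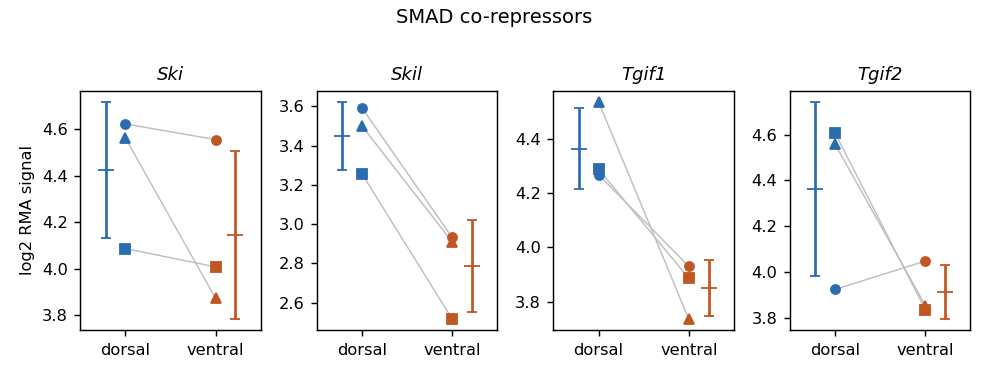
Log2 RMA signal (y axis, scaled per gene) of the 4 co-repressor genes in dorsal (blue) and ventral (orange) arrays; circles, squares and triangles are replicates 1, 2 and 3, grey lines join equal numbers, and bars are mean and SD. The Skil and Tgif1 groups do not overlap, and Tgif2 has 1 pair, number 1, with the higher value in ventral tissue.

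Fstl3, the secreted trap for activin and myostatin, had log2 signals of 4.87, 5.15 and 5.26 in dorsal and 4.86, 4.77 and 4.70 in ventral arrays. Here too the groups did not overlap, but dorsal array 1 was only 0.02 above ventral array 1, and the difference was -0.32 ± 0.19 (-0.79 to 0.15). Tgfbi, a matrix protein named for its induction by TGF-beta, had means of 3.14 ± 0.22 dorsally and 3.29 ± 0.11 ventrally. Its difference was 0.15 (-0.27 to 0.57), with the ventral array higher in each of the 3 pairs, by 0.25, 0.03 and 0.18.

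Around the members, the log2 fold changes of 70 other measured pathway genes had -0.08 as their median, and limma called 0 of them. At an unadjusted p under 0.05, 7 (10%) were lower and 3 (4.29%) higher in ventral tissue, beside the 5.90% and 4.32% of all genes, and without the block 9 were lower and 2 higher. Of 17 genes for the release of latent TGF-beta and ligand processing, 2 were lower and 1 higher at that p. Lrrc32, the cell-surface anchor GARP of latent TGF-beta, had 3.49, 3.91 and 3.51 in dorsal and 2.83, 2.96 and 3.15 in ventral arrays, a difference of -0.66 ± 0.19. Pcsk6, a protease that cleaves nodal and LEFTY precursors, had -0.47 ± 0.17, and its groups did not overlap. Itgb1, the beta-1 integrin chain, had 0.62 ± 0.25, carried by 5.03 in ventral array 2 beside 3.65 and 3.66 in the other ventral arrays. Its unadjusted limma p was 0.0482 with the block and 0.139 without it.

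Of 8 co-receptors and nodal partners, Nrp1, a co-receptor that also binds semaphorins and VEGF, had -0.45 ± 0.18. Bambi, a decoy receptor that dampens TGF-beta and BMP signals, had 0.42 ± 0.19, with 4.43, 4.51 and 4.72 in dorsal and 5.15, 4.82 and 4.95 in ventral arrays, so that its groups did not overlap. Acvrl1, the endothelial type I receptor ALK1, had 0.32 ± 0.20. Of 6 secreted antagonists, Dand5, a nodal antagonist of the left-right organiser, had -0.58 ± 0.17, from 2.89, 2.80 and 2.88 in dorsal to 2.39, 2.02 and 2.41 in ventral arrays, all under the array medians. The matrix proteoglycans Dcn and Fmod had -0.38 ± 0.29 and -0.13 ± 0.17.

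Of 18 cytoplasmic and nuclear regulators, 3 (16.7%) were lower and 2 (11.1%) higher in ventral tissue at an unadjusted limma p under 0.05. The shares of all genes were 5.90% and 4.32%. Usp15, a deubiquitinase that acts on the receptor and on SMADs, had 2.98, 2.98 and 2.96 in dorsal and 3.71, 3.50 and 4.06 in ventral arrays, a difference of 0.78 ± 0.19 without overlap. Ppm1a, a phosphatase of SMAD2 and SMAD3, had 3.71, 3.92 and 3.59 in dorsal and 3.09, 3.19 and 2.98 in ventral arrays, a difference of -0.65 ± 0.17 without overlap. Tab2, an adaptor of the kinase TAK1, had 0.86 ± 0.23, and Map3k7, which encodes TAK1, had -0.67 ± 0.19, both with overlapping groups. The unadjusted limma p of Tab2 was 0.0111 with the block and 0.0859 without it, so that 1 of the 2 genes with a higher ventral level is lost there. Smurf1, a ubiquitin ligase of SMADs and receptors, had -0.65 ± 0.22. Map3k7 and Smurf1 were named after their values were seen. The adjusted p of these 5 genes in limma lay between 0.435 and 0.464.

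Of 25 known target genes of the pathway, 16 (64%) lay under 0, beside 58.0% of all genes, and the list median was -0.09. Skil was the 1 (4%) with an unadjusted limma p under 0.05, lower in ventral tissue, beside 5.90% of all genes in that direction. Skil, Ltbp2 and Tgfbi belong both to this list and to the members. Myc had 0.67 ± 0.27, with 3.77, 3.89 and 5.41 in the ventral arrays, and Ccn1, a matricellular protein, had -0.43 ± 0.20 with groups that did not overlap. In this list all dorsal arrays were the higher for 4 genes (16%), beside 12.0% of all genes. All ventral arrays were the higher for 1 (4%), Smad7 at 0.24 ± 0.20, beside 6.74% of all genes. Smad7 was named after its values were seen.

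**Figure D5:**
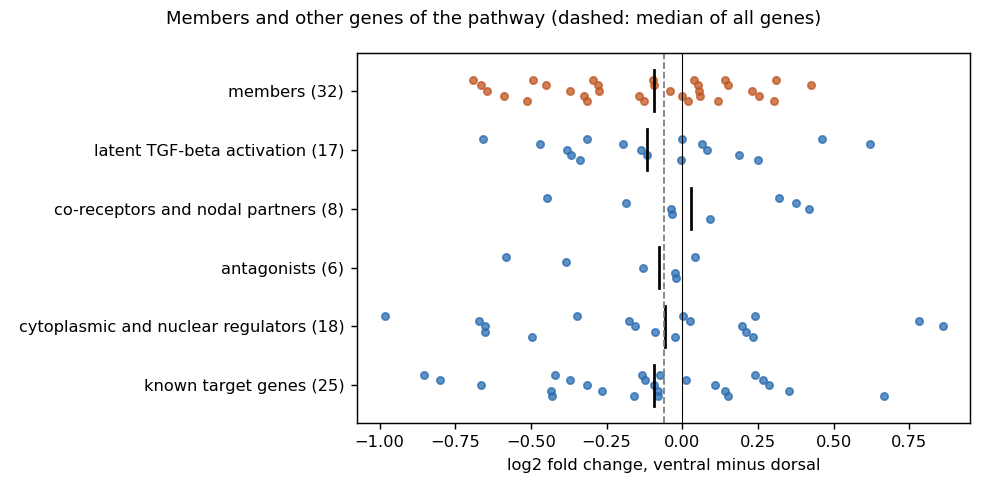
Log2 fold change, ventral minus dorsal (x axis), of the 32 members (orange) and of 5 lists of pathway genes (blue), with the number of genes in brackets. Skil, Ltbp2 and Tgfbi are drawn among the members and the known target genes, and Smad7 among the regulators and the known target genes. Black bars are list medians, the dashed line is the median of all genes (-0.06), and vertical scatter within a row has no meaning. The medians lie between -0.12 and 0.03, near that of all genes.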

How the data were processed

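Per the submitters' processing notes, the authors used Affymetrix Expression Console and RMA, named without versions, which corrects background, brings arrays to one distribution and summarises probes. The deposited values are RMA signals taken to be log2 from their range of 0.97 to 12.88 and their nearly equal array medians. Of 25429 probe sets, 24675 had 1 symbol in the platform annotation and 754 stayed unnamed. The members and lists were chosen with earlier results of these data known.

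Limma 3.58.1 in R 4.3.3 was fitted to all 24675 genes with the replicate number as a block and default eBayes, without a filter on dim genes. The fit was checked on simulated data with planted changes larger than any member's difference. That check does not show whether differences of the members' size would be called. Per the labels, dorsal and ventral tissue share their embryos, but whether equal numbers mark one embryo is not stated. The correlations of same-numbered arrays' deviations from their group means were 0.04, -0.01 and 0.06, so the data do not show the pairing, and an unblocked fit was made as an alternative. Every member is named. Values of all 6 arrays are given for members whose groups do not overlap, those with an unadjusted p under 0.05, the 4 of smallest p in each direction and the main ligands and receptors, and, chosen after their values were seen, for Lefty2, Smad4, Tgif2 and Ski. Of each other list the 3 genes of smallest p are named. Promoter windows were read from RefSeq (GRCm38.p6) and searched for exact motifs.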

Additional observations from a re-analysis of the deposited data

How the results depend on the processing

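Over 16 alternatives no member passed the threshold, and the lowest adjusted p was 0.250 in limma. Without the replicate block the count of 5 members with an unadjusted p under 0.05 and the 0 called members did not change. In that fit 6.84% of all genes were lower and 4.36% higher in ventral tissue at that p, and 1 of all genes was called. Without genes whose mean was under the median, 23 members were left. Of these, 2 (Lefty1 and Tgif1) had a lower ventral level at that p, and the groups did not overlap for 4 (dorsal higher) and 1 (ventral higher). The shares of all genes were 3.99%, 8.76% and 8.96%. The filter took out Skil, Gdf11 and Inhba, with means of 3.12, 2.93 and 2.48, which had such a p with all genes kept. It also took out Mstn, Acvr1c and Tgfb3, whose groups did not overlap. Leaving out arrays singly or in pairs, these counts ran from 1 to 8 at that p for lower and 0 to 1 for higher ventral levels, and from 9 to 14 and 2 to 6 without overlap, where fewer arrays overlap less often. In the same fits the shares of all genes ran from 3.83% to 8.47% and 3.32% to 4.64% at that p, and from 16.0% to 26.2% and 9.67% to 17.4% without overlap. Marker sums without single genes or arrays were computed after seeing the data. Skil kept an unadjusted p under 0.05 in all 15 alternatives that tested it, with log2 fold changes from -0.76 to -0.53. Lefty1 had such a p in 14 of 16, Tgif1 in 13 of 16, Gdf11 in 11 of 15 and Inhba in 6 of 14. The filter at the median of gene means left Skil out, since its mean was 3.12. The sign was the same in every alternative for 21 members and changed in at least 1 for the other 11, among them Tgfb1, Tgfbr1 and Tgfbr2. The small number of arrays and signals near the array median limit the precision.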
